A study of Mus musculus with 2 samples.

Results

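Transcripts of 10 genes of the hypoxia-inducible factor (HIF) pathway were compared between OT-I cells that overexpressed Eomes and control OT-I cells. The genes were taken by symbol from the deposited files. They are the HIF subunits *Hif1a*, *Epas1* and *Arnt*, the oxygen sensors *Egln1* and *Egln3*, *Vhl*, and the HIF targets outside glycolysis *Ndrg1*, *Bnip3*, *Vegfa* and *Mgarp*. All 10 were listed in both libraries, among 14732 gene symbols listed in at least 1 library.

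CD8+ T cells came from spleen and lymph nodes of C57BL/6 mice aged 6 to 8 weeks that carried the OT-I transgene, a T cell receptor specific for SIINFEKL, a peptide of OVA. Stimulation in both groups lasted 24 h, with 2.5 ng/mL peptide and 10 U/mL IL-2. Transduction followed, with the retroviral vector RVKM carrying an IRES-hCD2 cassette, with *Eomes* inserted in one group and empty in the control group. After 48 h the cells positive for human CD2 were sorted, so both groups were transduced cells, and plated at 40000 per well for restimulation with peptide and IL-2 over 3 days. The labels name no difference in oxygen between the groups. Each group was 1 library, so differences are given without p-values and without a check by replicates. *Eomes* itself was at an RPKM (reads per kilobase of transcript, scaled to the reads of the library) of 2.47 in control cells and 129.64 with Eomes overexpression, in the direction of the labels. All 11 T cell markers examined were expressed, at an RPKM of 49.85 (*Cd5*, Eomes-overexpressing) or more.

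HIF is a transcription factor made of an oxygen-regulated alpha subunit, HIF-1α (*Hif1a*) or HIF-2α (*Epas1*), and the stable partner ARNT. When oxygen is available, the prolyl hydroxylases encoded by the *Egln* genes modify the alpha subunits, the VHL protein then binds them, and they are degraded. When hydroxylation fails, or when T cell receptor and cytokine signals raise alpha subunit synthesis, HIF accumulates and switches on genes of glycolysis, blood vessel growth, mitochondrial turnover and its own negative feedback. Much of this control acts on protein, which was not measured here.

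Upstream sequence was examined for the DNA letters that HIF and T-box factors are known to recognize. The hypoxia response core was searched as ACGTG or GCGTG and the T-box core as GGTGTGA or AGGTGTG, each on both strands and with overlapping matches counted, in the 250 bases before the RefSeq start of transcription (GRCm38.p6). Windows were found for 8 of the 10 genes, with 2 windows for *Vegfa*. None was found for *Epas1* and *Ndrg1*, the members with the largest increase and the largest decrease, so the motif counts do not cover them. A hypoxia response core was present in 7 of these 9 windows, each of a different gene, and in 38.6% of the 32851 windows of all genes. Both forms of this core contain CG. The member windows had from 50.8% (*Egln3*) to 86.0% GC (*Egln1*), and the share of all windows was not matched for GC content. For *Vegfa* the window with a core was one inside the gene, not the one before its 5′ end. A T-box core was present in 1 of the 9, that of *Vhl*, and in 7.23% of all windows. A match is a description of the letters, not of binding. The windows of *Egln3* and *Mgarp*, whose transcripts were lower in Eomes-overexpressing cells, are shown with that of *Bnip3*, whose transcript was nearly equal and which had the most hypoxia response cores, and that of *Vhl* with its T-box core. Capitals mark the cores, and each sequence runs 5′ to 3′ on the strand of the gene. *Egln3* is at chr12:54203875-54204124 (minus strand), *Mgarp* at chr3:51396548-51396797 (minus strand), *Bnip3* at chr7:138909507-138909756 (minus strand) and *Vhl* at chr6:113623744-113623993 (plus strand).
Egln3: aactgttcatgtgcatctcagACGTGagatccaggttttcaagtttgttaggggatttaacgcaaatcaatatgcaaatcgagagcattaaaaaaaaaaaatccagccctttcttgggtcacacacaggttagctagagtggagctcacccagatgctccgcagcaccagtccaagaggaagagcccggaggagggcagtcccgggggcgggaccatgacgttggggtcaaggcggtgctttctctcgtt
Mgarp: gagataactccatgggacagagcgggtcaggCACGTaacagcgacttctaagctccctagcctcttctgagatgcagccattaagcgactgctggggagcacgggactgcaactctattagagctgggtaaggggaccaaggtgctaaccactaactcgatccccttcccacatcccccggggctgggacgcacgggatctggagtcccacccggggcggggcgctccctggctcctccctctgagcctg
Bnip3: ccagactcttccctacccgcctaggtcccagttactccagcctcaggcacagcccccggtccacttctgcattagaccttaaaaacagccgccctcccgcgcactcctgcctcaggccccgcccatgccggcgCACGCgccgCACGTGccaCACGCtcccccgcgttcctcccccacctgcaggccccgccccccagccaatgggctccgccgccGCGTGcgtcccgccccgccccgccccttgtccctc
Vhl: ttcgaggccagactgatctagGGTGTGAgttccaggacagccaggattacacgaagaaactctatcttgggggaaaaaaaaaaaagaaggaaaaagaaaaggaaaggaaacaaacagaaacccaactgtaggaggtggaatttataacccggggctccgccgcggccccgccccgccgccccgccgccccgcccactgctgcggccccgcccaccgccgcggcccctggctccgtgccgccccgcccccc

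In the *Egln3* window the only core, ACGTG on the gene's strand, spans bases -229 to -225 from the start. The only core of *Mgarp* lies at nearly the same distance, at -219 to -215, on the opposite strand, where it reads CACGT in the printed strand. *Bnip3* holds 5 matches. A pair of them, at -108 to -104 and -107 to -103, are the overlapping readings, on opposite strands, of the palindrome CACGTG, and another lies at -35 to -31, closest to the start. The single T-box core of *Vhl*, GGTGTGA, spans -229 to -223. *Hif1a* held 3 hypoxia response cores, *Egln1* 2, *Arnt* 1, and *Vegfa* 2 in one of its windows and none in the other. The *Vegfa* window with cores, chr17:46025164-46025413, lies wholly inside the annotated gene. The one without cores, chr17:46032378-46032627, lies before the 5′ end of the gene. The *Hif1a* window also lies inside the annotated span of its gene. The windows of *Mgarp*, *Egln1*, *Vhl*, *Bnip3* and *Arnt* overlap the annotated span of their gene in part, that of *Mgarp* over most of its length. The *Egln3* window does not overlap its gene.

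**Figure D1:**
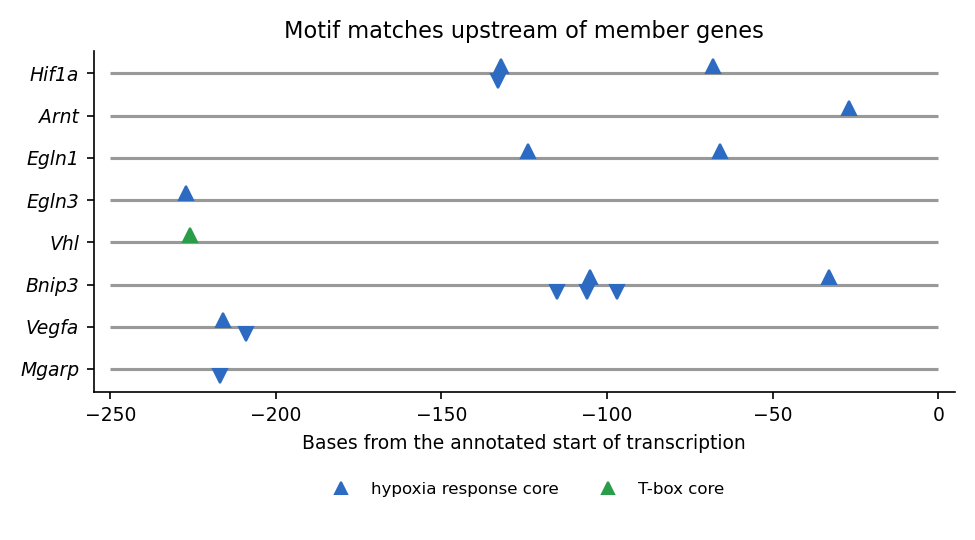
Positions of motif matches in the 250 bases before the annotated start of transcription of 8 member genes (x axis, bases from the start; both windows of *Vegfa* are drawn on 1 line). Triangles pointing up are matches on the gene's strand and triangles pointing down on the opposite strand, in blue for the hypoxia response core and green for the T-box core; *Bnip3* has the most matches and only *Vhl* has a T-box core.

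With Eomes overexpression, *Epas1* was 4.56-fold higher, *Ndrg1* 2.75-fold, *Mgarp* 2.47-fold and *Egln3* 1.65-fold lower, and the other 6 members differed by less than 1.5-fold. The threshold of 1.5-fold is the one used in the study, which also required a limit on the false discovery rate. That limit was not applied here. Genes that reached an RPKM of 1 in one or both libraries are called expressed. Of these 9925 genes, 7.65% were past 1.5-fold, 2.46% higher and 5.19% lower. The 1 of 10 members that was higher and the 3 of 10 that were lower stand against these shares, but the genes were chosen with earlier results of these data known. *Mgarp* reached an RPKM of 1 only in control cells. With an RPKM of at least 1 required in both libraries, 1 member was higher and 2 were lower. Past 2-fold were *Epas1*, *Ndrg1* and *Mgarp*, against 0.695% of expressed genes higher and 1.76% lower. The median log2 ratio (Eomes-overexpressing over control) was -0.11 over the 10 members and -0.0037 over all expressed genes. Log2 ratios are given with 95% Clopper-Pearson intervals on reads approximated from RPKM and transcript length. The intervals describe counting error between the 2 libraries and say nothing of the spread between cultures. The interval held 0 for *Vhl*, *Bnip3* and *Vegfa* and lay to one side of 0 for the other 7 members.

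**Figure D2:**
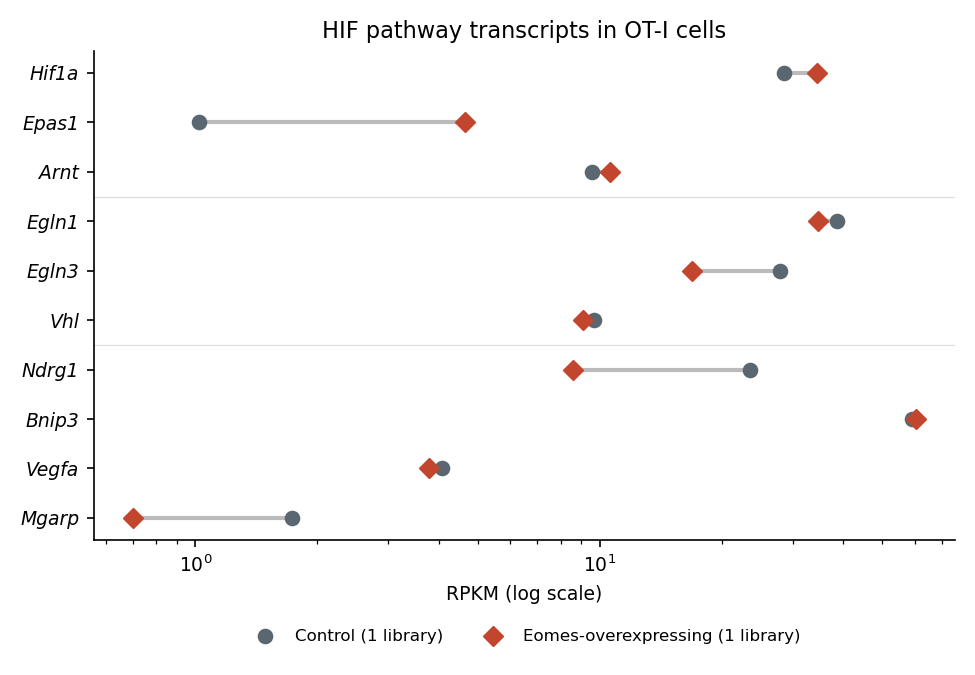
RPKM (x axis, log scale) of the 10 HIF pathway genes in the control library (grey circles) and the Eomes-overexpressing library (red diamonds), with a grey line joining both values of a gene. Thin lines separate HIF subunits, oxygen sensing genes and targets; *Epas1* moved to the right from 1.02 to 4.65, and *Egln3*, *Ndrg1* and *Mgarp* moved to the left.

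*Epas1* encodes HIF-2α, the alpha subunit best known from endothelial cells and from the control of erythropoietin. It lies on chromosome 17 of mm10 from 86753700 to 86833410 on the plus strand. Its RPKM was 1.02 in control cells and 4.65 with Eomes overexpression, from about 112 and 507 reads. It was the lowest of the 10 members in control and stood above *Vegfa* and *Mgarp* in Eomes-overexpressing cells. The log2 ratio was 2.19 (interval 1.89 to 2.49), at position 21 of the 9925 expressed genes when counted down from the highest log2 ratio. For comparison, 5.39% of the 2414 genes with a mean RPKM of 1 to 5 were more than 1.5-fold higher, and the central 95% of their log2 ratios ran from -1.21 to 0.78. With a pseudocount of 1 the log2 ratio of *Epas1* was 1.48.

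Because *Epas1* is abundant in endothelial and myeloid cells, markers of these cells were examined beside it. Among 10 endothelial markers 5 were not listed in either library and *Cdh5*, *Kdr* and *Tie1* were at no more than 0.03. The remaining 2, *Pecam1* and *Egfl7*, were not higher in Eomes-overexpressing cells (RPKM 5.10 and 3.46, and 16.41 and 15.76, in control and Eomes-overexpressing cells, respectively). The summed RPKM of the endothelial markers was 21.53 in control cells and 19.26 with Eomes overexpression. Among 9 macrophage and monocyte markers, 6 were not listed, *Adgre1*, *Csf1r* and *Lyz2* among them. The 3 listed ones went in different directions, with *Cd68* at 2.68 and 4.59, *Itgam* at 0.01 and 0.16 and *Cd14* at 1.39 and 1.12, and the summed RPKM of the list was 4.08 and 5.87. Both libraries came from CD8+ T cells sorted for human CD2, a gate that leaves out untransduced cells. The part of other cells in the *Epas1* result was not tested. In bulk RNA, a different number of cells of one kind and a different amount of RNA per cell cannot be told apart.

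*Hif1a*, on chromosome 12 from 73901375 to 73947530 (plus strand), encodes HIF-1α, the alpha subunit induced in activated T cells. Its RPKM was 28.54 in control cells and 34.48 with Eomes overexpression, a log2 ratio of 0.27 (interval 0.20 to 0.35). The log2 ratio was 0.045 after subtraction of the median for genes of like GC content, since ratios ran higher for transcripts low in GC in these libraries and the *Hif1a* transcript has 41.3% GC. *Arnt*, on chromosome 3 from 95434388 to 95497240 (plus strand), encodes the shared partner subunit. It had an RPKM of 9.58 and 10.61 and a log2 ratio of 0.15 (interval 0.01 to 0.28). Both genes thus stayed well within 1.5-fold.

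RPKM is scaled to transcript length, so levels can be set side by side between genes of a library. The level of *Hif1a* was 28.0 times that of *Epas1* in control cells, and 7.42 times with Eomes overexpression. *Epas1* made up 3.43% of the summed RPKM of the 3 alpha subunit genes in control and 11.9% in Eomes-overexpressing cells, while *Hif1a* made up 96.1% and 87.9%. The third gene, *Hif3a*, was at an RPKM of 0.15 and 0.09, and *Arnt2*, a relative of *Arnt*, at 0.71 and 0.54. *Hif1a* therefore remained the most abundant alpha subunit transcript in both libraries.

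The prolyl hydroxylases differed among themselves. *Egln3*, which encodes PHD3 and is itself a HIF target, lies on chromosome 12 from 54178981 to 54203860 (minus strand). Its RPKM was 27.95 in control cells and 16.94 with Eomes overexpression, from about 1479 and 891 reads, a log2 ratio of -0.72 (interval -0.84 to -0.60). That whole interval lies beyond 1.5-fold for the ratio as deposited, by a small margin. After centring by GC content the log2 ratio was -0.65, and the interval was not recomputed for it. Among the 2889 genes with a mean RPKM of 20 to 100, 1.45% were more than 1.5-fold lower.

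*Egln1*, on chromosome 8 from 124908587 to 124949324 (minus strand), encodes PHD2, the main HIF hydroxylase in most cells. Its RPKM was 38.62 in control cells and 34.59 with Eomes overexpression, a log2 ratio of -0.16 (interval -0.24 to -0.08), which was -0.069 after centring by GC content. *Egln2*, which encodes PHD1 and is no member, was at 28.76 and 28.99. The share of *Egln3* in the summed RPKM of the 3 hydroxylases was 29.3% in control cells and 21.0% with Eomes overexpression, and *Egln1* was the most abundant of them in both libraries.

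*Vhl*, on chromosome 6 from 113623959 to 113631633 (plus strand), encodes the subunit of a ubiquitin ligase that recognizes hydroxylated alpha subunits. Its RPKM was 9.70 in control cells and 9.06 with Eomes overexpression, a log2 ratio of -0.10 (interval -0.28 to 0.08), so a difference was not detectable at this depth. The partners of VHL in the ligase were also within 1.5-fold. *Elob* was at 295.45 and 289.68, *Eloc* at 58.11 and 73.09, *Cul2* at 10.98 and 13.54 and *Rbx1* at 48.87 and 48.74.

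In a list of 15 genes of oxygen sensing and HIF degradation, which includes *Egln1*, *Egln3* and *Vhl*, all were expressed, 1 was more than 1.5-fold higher, 1 lower, and 13 were within 1.5-fold. Over all expressed genes 2.46% were higher and 5.19% lower. The median log2 ratio of the list was -0.01. The lower gene was *Egln3*. The higher gene was *Hsp90aa1*, a chaperone that holds HIF-1α among many other proteins, at an RPKM of 236.33 and 355.32. Its log2 ratio of 0.59 lay just past 1.5-fold and was 0.44 after centring by GC content. *Hif1an*, the asparaginyl hydroxylase that blocks HIF from binding its coactivators, was at 9.73 and 9.26, a log2 ratio of -0.07 (interval -0.19 to 0.05). *Siah1a*, *Siah1b* and *Siah2*, ubiquitin ligases that act on the hydroxylases, had log2 ratios of -0.01, 0.34 and -0.20, and those of *Rack1* and *Hsp90ab1* were -0.11 and 0.08.

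**Figure D3:**
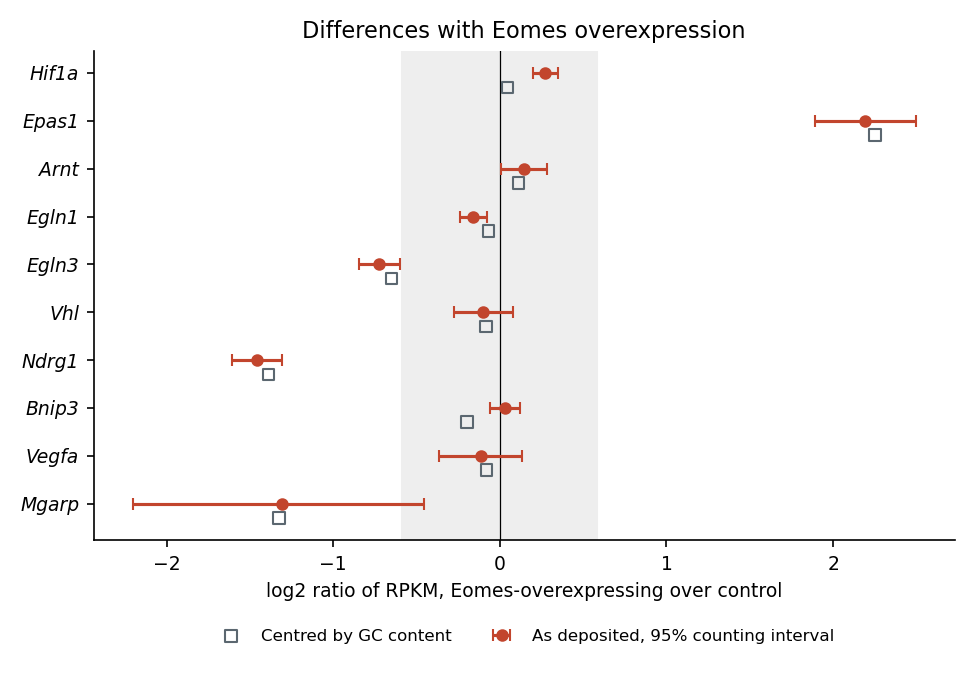
Log2 ratio of RPKM, Eomes-overexpressing over control (x axis), of the 10 members as deposited (red circles, bars are 95% counting intervals) and after centring by GC content (grey squares). The grey band is 1.5-fold in either direction; *Epas1* lies right of it, *Egln3*, *Ndrg1* and *Mgarp* lie left of it, and the interval of *Mgarp* reaches into the band.

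Among the targets, *Ndrg1* had the largest decrease of the 10 members. It encodes a stress-response protein long used as a marker of hypoxia and lies on chromosome 15 from 66929318 to 66969640 (minus strand). Its RPKM was 23.53 in control cells and 8.56 with Eomes overexpression, from about 1351 and 489 reads. The log2 ratio of -1.46 (interval -1.61 to -1.31) was at position 60 counted from the lowest of the 9925 expressed genes. Among the 3555 genes with a mean RPKM of 5 to 20, 3.54% were more than 1.5-fold lower, and the central 95% of log2 ratios began at -0.69. In the order of the members by level, *Ndrg1* was above *Vhl* and *Arnt* in control and below both in Eomes-overexpressing cells.

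The other genes of the NDRG family were examined for the same direction. *Ndrg2* was at an RPKM of 8.13 and 5.40, a log2 ratio of -0.59 (interval -0.84 to -0.35), and *Ndrg4* at 1.29 and 0.67, a log2 ratio of -0.95 (interval -1.55 to -0.38). *Ndrg3* was at 19.59 and 19.50 (log2 ratio -0.01, interval -0.13 to 0.12). Thus 3 of the 4 genes were more than 1.5-fold lower, against 5.19% of all expressed genes. This count includes *Ndrg1* itself, whose decrease prompted the comparison, so the share adds no independent result. The intervals of *Ndrg2* and *Ndrg4* also include smaller differences, and *Ndrg4* counted as expressed only through the control library. After centring by GC content the log2 ratio of *Ndrg2* was -0.53, within 1.5-fold.

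*Mgarp* encodes a mitochondrial membrane protein linked to the transport of mitochondria under hypoxia, and lies on chromosome 3 from 51388412 to 51396738 (minus strand). Its RPKM was 1.73 in control cells and 0.70 with Eomes overexpression. The log2 ratio of -1.31 rests on only about 42 and 17 reads, and its interval of -2.20 to -0.45 includes decreases smaller than 1.5-fold. In the range of a mean RPKM of 1 to 5, 11.5% of genes were more than 1.5-fold lower.

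*Bnip3*, on chromosome 7 from 138890836 to 138909519 (minus strand), encodes a mitochondrial protein that marks mitochondria for autophagy and is among the most widely shared HIF targets. It had the highest level of the 10 members in both libraries, with an RPKM of 59.13 in control cells and 60.38 with Eomes overexpression. The log2 ratio was 0.03 (interval -0.06 to 0.12) and was -0.20 after centring by GC content, as its transcript has 41.6% GC. Of the 50-base stretches of the *Bnip3* transcript, 21.9% also occur in transcripts of 4 other annotated genes, none of them listed in the files, so reads could have been split between them. The related *Bnip3l* was at 16.93 and 14.20, a log2 ratio of -0.25.

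*Vegfa*, on chromosome 17 from 46016993 to 46032369 (minus strand), encodes the growth factor of blood vessels. It was at an RPKM of 4.08 in control cells and 3.77 with Eomes overexpression, a log2 ratio of -0.11 (interval -0.37 to 0.13), so that no difference was detectable at this depth. Among its relatives, the ligand *Vegfb*, which is not a classical hypoxia target, was at 12.90 and 16.43 (log2 ratio 0.35). The coreceptor *Nrp1* was at 5.34 and 2.93, a log2 ratio of -0.87 (interval -1.12 to -0.62). The receptors *Flt1*, *Kdr* and *Flt4*, the coreceptor *Nrp2* and the ligands *Vegfc* and *Vegfd* were at an RPKM of 0.07 or less or not listed, and *Pgf* was at 0.16 and 0.04. In the list of 10 VEGF ligands and receptors only *Vegfa*, *Vegfb* and *Nrp1* were expressed.

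**Figure D4:**
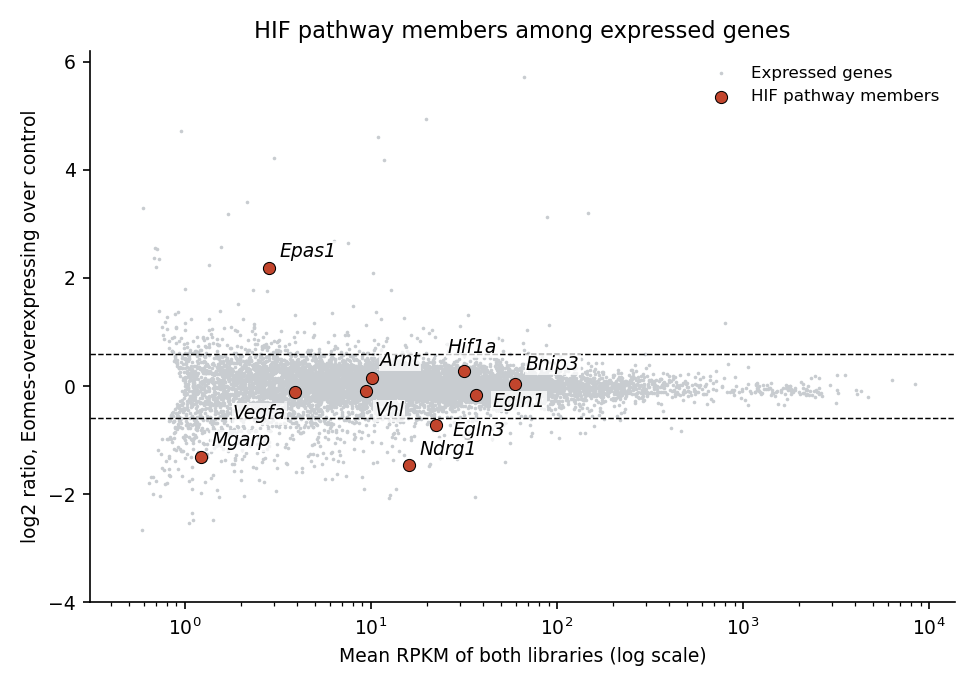
Log2 ratio, Eomes-overexpressing over control (y axis), against the mean RPKM of both libraries (x axis, log scale) for all expressed genes (grey) and the 10 members (red), with dashed lines at 1.5-fold. *Epas1* lies above and *Ndrg1* and *Mgarp* below most genes of their level, *Egln3* lies just under the lower line, and 4 expressed genes fall outside the y axis.

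HIF targets beyond the 10 members were examined in a list of 37 genes outside glycolysis, of which 5 are members. At an RPKM of at least 1 in either library 30 of them were expressed. None was more than 1.5-fold higher and 7 (23.3%) were more than 1.5-fold lower, against 2.46% and 5.19% of all expressed genes. Log2 ratios were below 0 for 23 of the 30, against 50.5% of all expressed genes, and the median was -0.25. Without the members, 25 expressed targets remained, of which 4 (16.0%) were more than 1.5-fold lower and 19 had a log2 ratio below 0, with a median of -0.24. The study, in its pathway analysis, reported genes of hypoxia pathways among those raised by Eomes overexpression. The genes behind that report were not compared with this list. The list of targets used here was drawn up with earlier results of these data known. The T cell markers were lower too, with all 11 log2 ratios below 0, a median of -0.25 and 3 (27.3%) more than 1.5-fold lower, and the part of this in the target result was not tested.

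The 4 lower targets that are not members have different functions. *P4ha2*, a collagen prolyl hydroxylase, was at an RPKM of 4.64 in control cells and 1.62 with Eomes overexpression, a log2 ratio of -1.52 (interval -1.94 to -1.14). *Zfp395*, a transcription factor, was at 2.99 and 1.27, a log2 ratio of -1.24 (interval -1.58 to -0.90). *Cited2* encodes a feedback inhibitor that competes with HIF for its coactivators, and *Ddit4* an inhibitor of mTORC1. *Cited2* was at 78.05 and 48.53 (log2 ratio -0.69, interval -0.77 to -0.60), and *Ddit4* was at 64.46 and 40.41 (log2 ratio -0.67, interval -0.77 to -0.58). *Cited2* and *Egln3* were thus lower by similar ratios, and *Egln1* was at a log2 ratio of -0.16. Whether feedback genes of the pathway differ as a group was not tested.

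Other targets differed less. *Mxi1*, an antagonist of MYC, stayed just inside 1.5-fold at a log2 ratio of -0.56, and the collagen-modifying *Plod2* and *P4ha1* were at -0.47 and -0.24. After centring by GC content *Plod2* was at -0.65, past 1.5-fold. *Fam162a* was at -0.42, *Ak4* at -0.38 and *Hilpda*, which coats lipid droplets, at -0.15. The highest log2 ratios among the 30 expressed genes of the list were those of *Car12* (0.38), a carbonic anhydrase, *Kdm3a* (0.25), a histone demethylase, and *Hmox1* (0.21). *Adm* was not listed, and genes under an RPKM of 1 in both libraries included *Car9*, *Rora* and *Lox*.

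**Figure D5:**
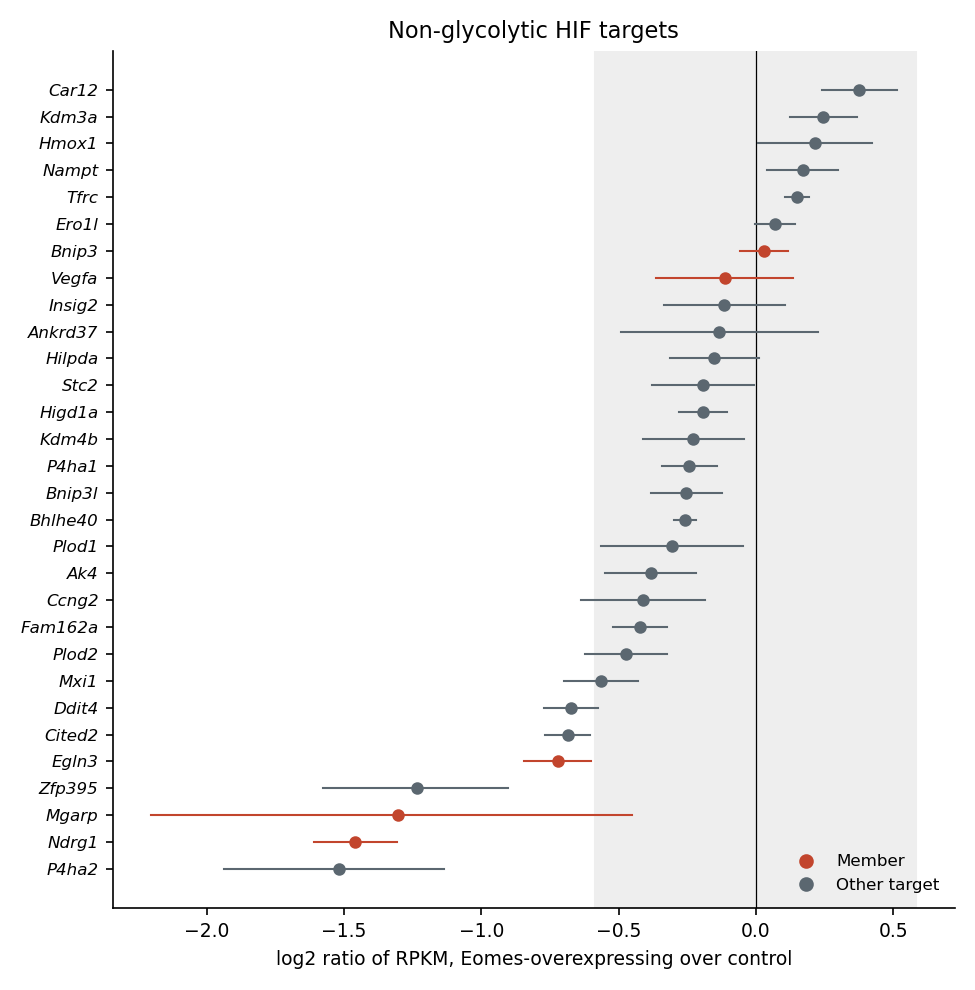
Log2 ratio of RPKM, Eomes-overexpressing over control (x axis), of the 30 expressed HIF targets outside glycolysis, ordered by ratio, with members in red, other targets in grey and bars for 95% counting intervals. The grey band is 1.5-fold in either direction; 7 genes lie to its left and none to its right.

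Glycolytic targets of HIF had a higher summed RPKM, and no test of their difference from the other targets was made. Of 21 such genes 20 were expressed, 18 of them with a log2 ratio below 0 and a median of -0.18. Over all expressed genes 50.5% were below 0. The T cell markers, with a median of -0.25, were all below 0 too, and the part of this was not tested. Of the glycolytic targets 2 were more than 1.5-fold lower, against 5.19% of all expressed genes. These were *Slc16a3*, the lactate exporter, at an RPKM of 125.79 and 83.41 (log2 ratio -0.59), and *Aldoc* at 1.81 and 1.13 (log2 ratio -0.68). *Slc16a3* was within 1.5-fold after centring by GC content (-0.50) and under scaling by summed RPKM or the trimmed mean. The gene that was not expressed by this rule, *Eno2*, an enolase, was at 0.91 and 0.18, a log2 ratio of -2.34 (interval -3.49 to -1.35) on about 51 and 10 reads. *Slc2a1*, the glucose transporter, and *Pdk1* had log2 ratios of -0.18 and -0.17. Of 10 HIF coactivators and modulators 9 were expressed, and *Cited2* was the only one past 1.5-fold, against 7.65% of all expressed genes. *Sirt1*, a deacetylase, lay just inside it in the other direction, at an RPKM of 4.33 and 6.49 (log2 ratio 0.58, interval 0.38 to 0.79, and 0.41 after centring by GC content). The log2 ratios of the coactivators *Ep300* and *Crebbp* were 0.04 and 0.07.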

How the data were processed

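The authors sequenced total RNA of the control and the Eomes-overexpressing OT-I culture as 1 library each, filtered reads with SOAPnuke, mapped them with HISAT and Bowtie2 to mm10 and computed expression with RSEM. They deposited FPKM values, which their methods call RPKM, with 2 decimals, for 14110 control and 13966 Eomes-overexpressing gene symbols after 20 and 19 symbols turned into dates were left out here. Scaling between libraries is not given in the sources used here, and reads were not analysed here.

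The tools were Python 3.11.15 with scipy 1.17.1, pandas 2.3.3, numpy 2.4.6 and matplotlib 3.10.9. A floor of 0.01 replaced values that were lower or not listed, and log2 ratios were taken without a pseudocount. Low values of genes with 1 GENCODE vM21 transcript lay near whole multiples of 1 read (within 0.2 reads for 68.8% of control and 69.6% of Eomes-overexpressing values, against 40.0% with no step), which placed the depth at about 19900000 and 19800000 reads. Reads and intervals were approximated from that step and the longest RefSeq-matched transcript, and are less certain where a gene has several transcripts. GC content came from the same transcript for 99.7% of expressed genes, and ratios were centred in 20 bins. The read step and the fold calls were tested on simulated data. The intervals were tested only on the simulated reads themselves, not on reads approximated from RPKM and transcript length.

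The members, lists and alternatives were chosen with earlier results of these data known. Named were all members and Eomes, the genes of the subunit, sensing, VEGF and NDRG lists, and from other lists up to 4 genes per direction past 1.5-fold. The other genes named were picked after their values were seen. Exons of 3 members overlap other annotated genes, none of them listed. Alternatives were pseudocounts of 0.1 and 1, other scalings, minimum RPKM values and a 2-fold threshold.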

Additional observations from a re-analysis of the deposited data

How the results depend on the processing

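Of 160 values recomputed under an alternative, 135 stayed within their counting interval (log2 ratios) or within 1.5 times the count, 25 moved and none of the values past 1.5-fold changed sign. *Epas1*, *Egln3*, *Ndrg1* and *Mgarp* stayed past 1.5-fold under both pseudocounts, every scaling and centring by GC content. Centring by GC content moved *Hif1a* to a log2 ratio of 0.045, *Egln1* to -0.069 and *Bnip3*, from 0.03, to -0.20, and a pseudocount of 1 moved *Epas1* to 1.48. Of all expressed genes, 244 were higher and 515 lower. These counts were 118 and 285 with a pseudocount of 1, 1356 and 2088 with no minimum RPKM, 95 and 213 with a minimum of 5, and 69 and 175 at 2-fold. With a minimum of 1 in both libraries they were 173 and 361. With a minimum RPKM of 5 the members included 0 higher genes, since *Epas1* was left out. In the oxygen sensing list 0 genes were higher after centring by GC content, and 0 were higher and 0 lower at 2-fold. Among HIF targets outside glycolysis, 2 genes were higher with no minimum RPKM (both at an RPKM of 0.04 or less), and 4 were lower with a minimum of 5 and also at 2-fold. Among glycolytic targets 1 gene was lower with a pseudocount of 1, with each library divided by its summed RPKM, with the trimmed mean, after centring by GC content and with a minimum of 5, and 0 at 2-fold. No paired analysis was possible because each group has 1 library. For the same reason no library could be left out, and the spread between cultures is unknown. Depth limits *Mgarp* most, with about 17 reads in Eomes-overexpressing cells.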

Other observations

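HIF alpha subunits belong to the bHLH-PAS family, whose other genes include the aryl hydrocarbon receptor and the circadian clock factors. Of 17 such genes and PAS-domain partners, 7 were expressed. Of these, 1 was more than 1.5-fold higher and none lower, against 2.46% and 5.19% of all expressed genes. The higher gene was *Clock*, at an RPKM of 0.66 in control cells and 1.04 with Eomes overexpression (log2 ratio 0.66, interval 0.33 to 0.98, and 0.43 after centring by GC content). *Clock* counted as expressed only through the Eomes-overexpressing library. The minimum RPKM left out *Npas1*, *Npas4*, *Arntl2* and *Per3*, with log2 ratios of -1.84, -1.38, -1.04 and -0.92 and intervals below 0. None of the listed genes that it left out had a log2 ratio above 0. *Per1* was at 12.72 and 11.66, *Arntl* at 1.67 and 1.36 and *Ahr* at 0.45 and 0.32. Within this list and the HIF subunits, *Epas1* was the only expressed gene with a ratio above 2-fold.

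In a list of 19 genes of mitophagy and the BNIP3 family, 18 were expressed, 2 were more than 1.5-fold lower and none was more than 1.5-fold higher. Over all expressed genes these shares were 5.19% and 2.46%. The lower genes were *Calcoco1*, an autophagy receptor, at an RPKM of 3.25 and 1.74 (log2 ratio -0.90, interval -1.27 to -0.54) and *Map1lc3a* at 5.72 and 3.78 (log2 ratio -0.60, interval -1.01 to -0.18, and -0.51, within 1.5-fold, after centring by GC content). *Pink1*, *Sqstm1* and *Map1lc3b* had log2 ratios of 0.07, -0.02 and -0.11.

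Markers of other blood cells differed in level. Of 7 dendritic cell markers, *Xcr1* was the only one expressed, at 1.79 and 1.11, and of 7 B cell markers *Cd79b*, at 2.79 and 1.56. *Cd4* was at 0.03 and 0.08 and *Foxp3* at 0.09 and 0.07, while *Zbtb7b*, a factor of the CD4 lineage, was at 13.79 and 11.61. Among the T cell markers 3 of 11 (27.3%, against 5.19% of all expressed genes) were more than 1.5-fold lower, namely *Cd5*, *Cd8a* and *Cd2*, with log2 ratios of -0.93, -0.88 and -0.64. *Klrb1c*, which encodes NK1.1, was at 0.31 in control cells and 5.74 with Eomes overexpression, a log2 ratio of 4.21, while *Klre1* was at 1.51 and 1.40 and *Ncr1* was not listed.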
